A study of Mus musculus with 18 samples.

Results

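Isoproterenol-stimulated brown adipocytes that had received LNA2 were compared with isoproterenol-stimulated brown adipocytes that had received LNA1. Both are gapmers against the same transcript, the long noncoding RNA Gm15551. The comparison took the 3 LNA2_iso and the 3 LNA1_iso libraries (replicate numbers 2, 3 and 4), 6 of the 18 libraries of the series, and was paired by replicate number. It covered all 14949 genes that passed a filter on low counts, of 54347 listed. All 18 libraries were polyA RNA from the mouse brown preadipocyte line wt1-SAM, an immortalised line that stably carries a CRISPR activation system, differentiated to day 7. Gapmers were introduced by reverse transfection on day 4, as 1.4 µl of a 10 µM stock for 500000 cells. The iso groups were kept in 1 µM isoproterenol, a beta-adrenergic agonist, for the last 24 h, and the ctrl groups were not. The remaining 12 libraries are LNA1_ctrl, LNA2_ctrl, ctrlA_ctrl and ctrlA_iso, with 3 libraries each, where ctrlA is a gapmer without a target. Every library comes from this 1 line, and the labels give a replicate number without saying whether a number is a separate culture, so the p-values measure the spread between these samples.

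A gapmer is a short antisense oligonucleotide with locked nucleic acids at both ends and a DNA stretch between them. It pairs with its target RNA, and RNase H cuts the RNA strand of the duplex. Any RNA with enough of the same letters can be paired as well, and for that reason a knock-down is usually made with several gapmers of unrelated sequence, so that genes that move with 1 of them can be told from genes that move with all. Brown adipocytes answer beta-adrenergic agonists through cAMP with lipolysis and with heat production in mitochondria.

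The 3 gapmers are shown because their sequences are the only labelled difference between these groups. They are written 5′ to 3′.
ctrlA: aacacgtctatacgc
LNA1: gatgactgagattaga
LNA2: aagtagcacggcgttg
LNA1 and LNA2 have 16 bases each and ctrlA has 15. G or C makes up 6 bases of LNA1, 9 of LNA2 and 7 of ctrlA. Both sites lie in exon 2 of 2 of the 535-base annotated Gm15551 transcript, on the minus strand of chromosome 3 (GRCm38), inside the gene body of Camk2d, which is on the plus strand. The LNA1 site is at chr3:126667502-126667517 (bases 347 to 362 of the transcript) and the LNA2 site at chr3:126667608-126667623 (bases 241 to 256).

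The 6 libraries held 10718630 to 13108702 counts each, and 21864 to 23498 genes had at least 1 count. The replicate 2 libraries carried more counts of the ribosomal RNA gene CT010467.1 (7.44% with LNA1 and 2.88% with LNA2) than replicates 3 and 4 (0.325% to 1.04%), and more mitochondrial counts (9.79% and 7.86% against 2.56% to 4.49%). The lowest mitochondrial share, 2.56%, was in LNA2_iso replicate 3. Markers of adipocytes were present: Adipoq was at 261 to 472 CPM, Plin1 at 324 to 760 CPM and Ucp1, the uncoupling protein of brown fat, at 9.38 to 13.6 CPM over the 6 libraries. CPM is a gene's counts per 1000000 counts of the library, scaled by edgeR's TMM factors. Dio2, which brown adipocytes make on stimulation, had no more than 4 counts in any of them. Of 16 macrophage and leukocyte markers, 12 had at most 10 counts in each of the 6 libraries, Ptprc had 5 counts in all and Adgre1 had 1, while Cd68 had 2111 and Cd14 had 356. Of 14 endothelial and mural markers Kdr, Emcn, Cldn5 and Rgs5 had 0 counts, while Cspg4 had 985, Acta2 771, Des 725 and Myh11 312. Of 14 skeletal muscle markers Myod1, Myf5, Myh1 and Myh4 had 0 counts and Acta1 had 264.

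Gm15551 itself was close to the limit of detection and did not separate the gapmers. It had 1, 4 and 1 counts with LNA1 and 4, 5 and 1 counts with LNA2 in replicates 2, 3 and 4, against 9, 2 and 2 with ctrlA. The levels were 0.152 ± 0.119 CPM with LNA1, 0.283 ± 0.18 CPM with LNA2 and 0.344 ± 0.306 CPM with ctrlA (SD, n = 3). All 3 groups overlapped, and 3 counts, the limit that a count of 0 allows, equal 0.218 to 0.285 CPM in these 6 libraries. The log2 fold change of LNA2 over LNA1 was 0.73 with an SE of 0.806, and edgeR without a filter on low counts gave an adjusted p of 0.9. An exact two-sided permutation test of the 3 against 3 libraries gave p = 0.4, where 0.1 is the smallest p it can give. Without LNA1_iso replicate 2 the log2 difference was -0.03, and without LNA1_iso replicate 3 it was 1.83. A difference in the knock-down itself was therefore not detectable at this depth.

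The gapmers differed over other genes. Of 14949 genes 3575 (23.9%) had an unadjusted p below 0.05 and 1044 (6.98%) an adjusted p below 0.05 in edgeR. With an adjusted p below 0.05 and an absolute log2 fold change above 0.5 taken as a call, edgeR called 513 of 14949 genes (3.43%) in stimulated cells, 217 higher with LNA2 (1.45%) and 296 lower (1.98%). The count rests on the pairing: without the replicate number in the model edgeR called 28 genes, 7 higher and 21 lower, and all 28 were among the 513. Most differences were moderate. The median absolute log2 fold change was 0.67 among genes higher with LNA2 and 0.80 among those lower, 39 and 98 of them passed 1, and 7 and 22 passed 2. All 217 higher genes and 292 of the 296 lower genes moved the same way in all 3 replicate pairs. A call paired by replicate number favours such agreement, so these counts add no support to the calls. The LNA1 and LNA2 libraries did not overlap for 103 of the higher and 172 of the lower genes, and the same was true of 1095 of all genes tested (7.32%). Protein-coding genes made up 96.8% of the higher and 87.8% of the lower genes, against 82.9% of all. The median gene body was 17.7 kb for higher, 26.9 kb for lower and 18.1 kb for all genes.

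**Figure D1:**
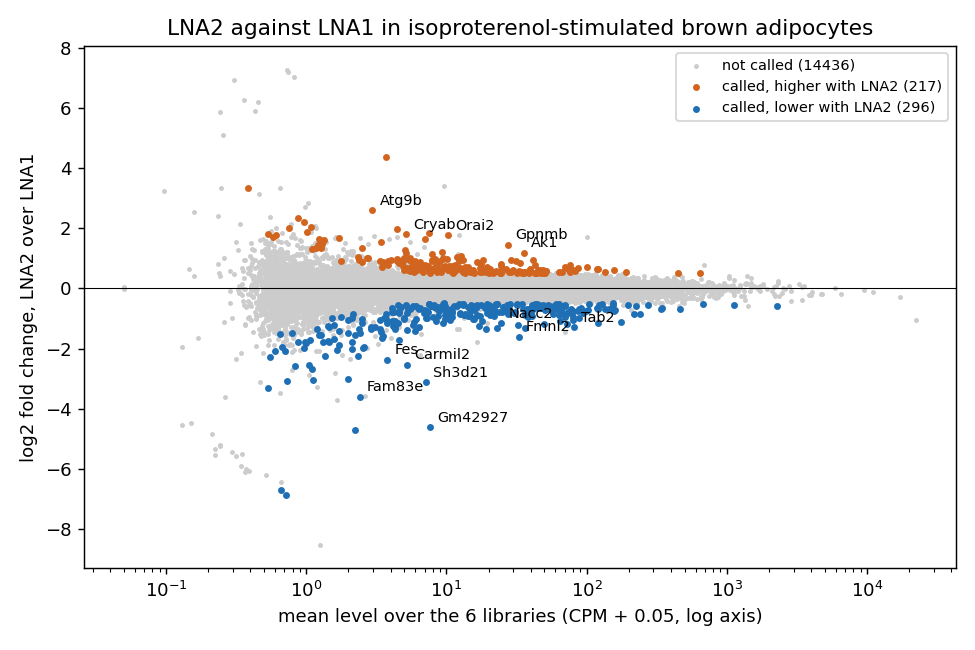
Log2 fold change of LNA2 over LNA1 in stimulated cells (y axis) against the mean level over the 6 libraries (x axis, CPM + 0.05 on a log axis) for every gene tested, with the 217 called higher in orange, the 296 called lower in blue and the others in grey. Called genes lie on both sides of 0 at all but the lowest and highest levels, and the largest called differences are on the lower side.

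Large differences were followed in the 14 genes with the greatest fold change in each direction that had a mean of at least 1 CPM, no overlap between LNA1 and LNA2 and no clone or predicted name. In the 14 lower genes LNA1 stood above both LNA2 and ctrlA. The predicted gene Gm42927, outside this rule, fell further (log2 -4.61) and had LNA2 below ctrlA as well; it is described with the test between states. Sh3d21, which encodes a protein with an SH3 domain, was at 6.57, 13.2 and 18.6 CPM with LNA1 in replicates 2, 3 and 4, at 1.14, 1.02 and 2.15 CPM with LNA2, and at 0.304, 1.16 and 0.919 CPM with ctrlA. Each LNA1 library was above every library of the other gapmers, and LNA2 and ctrlA overlapped. The fold change was -3.12 (log2, SE 0.235, edgeR adjusted p = 8.23e-06). The order was the same in unstimulated cells, with 5.26, 8.87 and 13.4 CPM under LNA1 and 0.50, 1.06 and 0.91 CPM under LNA2.

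Fes, a non-receptor tyrosine kinase, was at 3.82, 6.76 and 8.10 CPM with LNA1 and at 0.759, 1.57 and 1.31 CPM with LNA2 (log2 -2.37, SE 0.243). Carmil2, a regulator of actin capping, was at 3.99, 11.7 and 11.04 CPM with LNA1 and at 0.570, 2.52 and 1.54 CPM with LNA2 (log2 -2.54, SE 0.255). For both genes the LNA1 and LNA2 libraries did not overlap, as the rule on size required, and edgeR gave an adjusted p of 7.34e-05. Their ctrlA levels were 0.304 to 1.35 CPM for Fes and 0.988 to 1.43 CPM for Carmil2. Carmil2 shares exon sequence on the opposite strand with Acd.

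The other lower genes that the rule on size named spanned log2 fold changes of -1.76 to -3.60. Absence of overlap between LNA1 and LNA2 was part of that rule. Fam83e was at 3.37, 5.09 and 4.61 CPM with LNA1 and at 0.380, 0.236 and 0.461 CPM with LNA2 (log2 -3.60, SE 0.485, adjusted p = 0.000497). Plac8 (log2 -3.02), Hsf5, a heat shock factor family member (log2 -3.06), Ephx3, an epoxide hydrolase (log2 -2.26), Avil, the actin-binding protein advillin (log2 -2.01), Ttn, the sarcomere protein titin (log2 -1.96), and Aldoc, an aldolase (log2 -1.79), were also lower with LNA2. Plac8 shows the spread between replicates: it was at 7.81 CPM in LNA1 replicate 2 and at 1.38 and 1.35 CPM in LNA1 replicates 3 and 4, against 0.664, 0.0786 and 0.384 CPM with LNA2. The LNA2 values of Plac8, Hsf5, Fam83e and Lsmem1 lie near the level that 3 counts give. Across the 14 genes the fold changes against ctrlA_iso were 1.88 to 3.93 for LNA1 and -0.60 to 0.81 for LNA2 (log2). Both of those comparisons use the same ctrlA libraries.

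Nacc2, a nuclear corepressor with a BTB domain, went the other way round: LNA1 and ctrlA were alike and LNA2 was low. It was at 22.7, 40.3 and 39.6 CPM with LNA1, at 17.5, 15.0 and 12.4 CPM with LNA2 and at 25.2, 42.2 and 39.0 CPM with ctrlA. No LNA2 library reached the lowest library of the other groups. The LNA2 to LNA1 fold change was -1.17 (log2, SE 0.181, edgeR adjusted p = 0.00144) in stimulated and -1.30 (adjusted p = 0.00101) in unstimulated cells. Against ctrlA_iso it was -0.05 for LNA1 and -1.22 for LNA2.

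Among genes higher with LNA2 the Nacc2 arrangement, LNA1 near ctrlA and LNA2 apart, was common. Atg9b, a paralogue of the autophagy scramblase Atg9a, was at 0.355, 1.24 and 0.874 CPM with LNA1, at 2.94, 5.03 and 7.07 CPM with LNA2 and at 0.304, 1.09 and 0.613 CPM with ctrlA. LNA2 did not overlap either of the other gapmers, LNA1 and ctrlA did overlap, and the fold change of LNA2 over LNA1 was 2.60 (log2, SE 0.323, edgeR adjusted p = 0.000265). Atg9b shares exon sequence on the opposite strand with Nos3.

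Orai2, a subunit of store-operated calcium channels, was at 4.17, 5.17 and 4.61 CPM with LNA1, at 12.2, 19.7 and 15.6 CPM with LNA2 and at 4.70 to 5.70 CPM with ctrlA (LNA2 over LNA1 log2 1.76, SE 0.216). Gpnmb, a glycoprotein of lysosomes and melanosomes, was at 9.32, 18.1 and 15.97 CPM with LNA1, at 21.2, 54.4 and 44.97 CPM with LNA2 and at 10.3 to 21.2 CPM with ctrlA (log2 1.45, SE 0.148). Every LNA2 library of both genes was above every LNA1 library, as the rule on size required. Cryab, the small heat shock protein alpha-B-crystallin, was at 1.82 to 2.84 CPM with LNA1 and at 7.23 to 8.72 CPM with LNA2 (log2 1.79, SE 0.233, adjusted p = 0.000368). Cryab overlaps Hspb2 on the opposite strand.

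The highest fold change named on this side, that of Fyb (log2 4.35, SE 1.17), an adaptor protein of blood cells, was not steady. Fyb was at 1.33, 0.436 and 0 CPM with LNA1 and at 6.36, 11.8 and 1.92 CPM with LNA2, its edgeR adjusted p was 0.0348, and the call was lost on leaving out any of 5 of the 6 libraries, as were those of Syngr3, Cplane2 and Gsta4. In unstimulated cells its log2 fold change was -1.05 (adjusted p = 0.726). Prl2c2, a prolactin family hormone with near-identical paralogues between which reads can be split, was at 1.43 to 6.66 CPM with LNA1 and at 7.47 to 16.4 CPM with LNA2 (log2 1.82, adjusted p = 0.016). Lmntd1, Inka2, Syngr3, Tmem88b, Brsk1, Cplane2, Gsta4 and Plcb2, a phospholipase C, made up the rest of the 14, with log2 fold changes of 1.27 to 1.67. Each had LNA1 and LNA2 libraries that did not overlap, as the rule on size required. Across the 14 genes the fold changes against ctrlA_iso were -1.23 to 1.33 for LNA1 and 0.60 to 5.68 for LNA2.

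**Figure D2:**
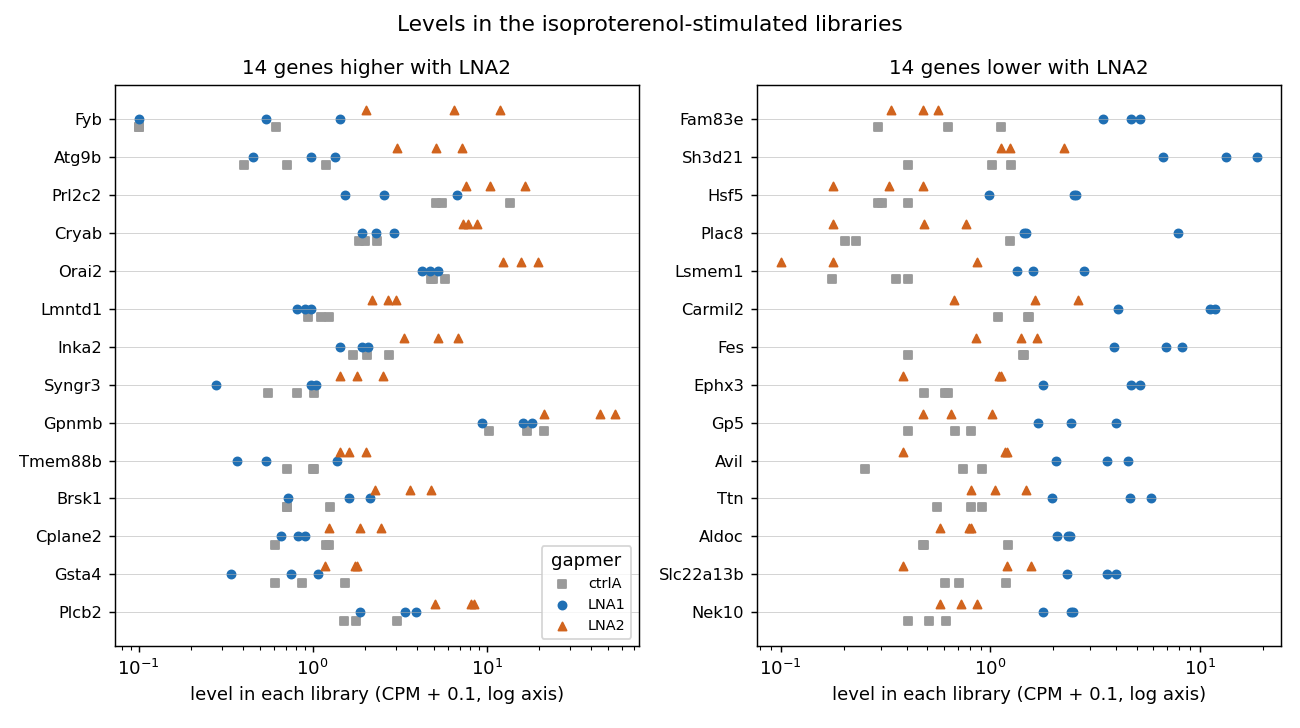
Level in each stimulated library (x axis, CPM + 0.1 on a log axis) of the 14 genes higher and the 14 genes lower with LNA2 that the rule on size named, with ctrlA as grey squares, LNA1 as blue circles and LNA2 as orange triangles. On the left LNA2 mostly stands apart from the other gapmers, and on the right LNA1 stands above both.

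Over all called genes the medians against ctrlA_iso were as follows. For the 217 genes higher with LNA2 the median log2 fold change against ctrlA_iso was -0.06 with LNA1 and 0.62 with LNA2. For the 296 genes lower with LNA2 it was 0.22 with LNA1 and -0.51 with LNA2, so that the arrangement of the 14 lower genes, with LNA1 apart and LNA2 near ctrlA, was not that of the median lower gene. These values share the ctrlA_iso libraries and the libraries that made the call, and are given as a description. Against ctrlA_iso edgeR called 217 genes (1.45%) for LNA1 and 823 genes (5.51%) for LNA2.

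Because fold changes are widest for weakly detected genes, the genes with the smallest p and a mean of at least 10 CPM were looked at as well, 8 in each direction; they were chosen after their values were seen. Among those lower with LNA2, 3 had the Sh3d21 or an intermediate arrangement. Chd2, a chromatin remodeller, was at 155, 271 and 301 CPM with LNA1, at 88.4, 117 and 122 CPM with LNA2 and at 80.9 to 128 CPM with ctrlA (LNA2 over LNA1 log2 -1.12, SE 0.09, edgeR adjusted p = 1.11e-05). It shares exon sequence on the same strand with 1810026B05Rik, so that reads may be split. Parm1, a mucin-like membrane protein (log2 -0.76), and Mylk, myosin light chain kinase (log2 -0.77), had ctrlA levels between the other groups: 76.0 to 89.7 CPM for Parm1, against 104 to 120 CPM with LNA1 and 60.6 to 67.0 CPM with LNA2.

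The remaining 5 had the Nacc2 arrangement. Tab2, an adaptor that joins TAK1 to cytokine receptor signalling, was at 97.0, 111 and 138 CPM with LNA1, at 51.1, 38.9 and 49.7 CPM with LNA2 and at 92.7 to 126 CPM with ctrlA (log2 -1.30, SE 0.133). Wdhd1, a replisome component, was at 49.1 to 52.97 CPM with LNA1 and at 16.04 to 29.3 CPM with LNA2 (log2 -1.33, SE 0.143). Lbr, the lamin B receptor (log2 -1.09), Pls3, the actin-bundling protein plastin 3 (log2 -1.20), and Sgce, a sarcoglycan (log2 -0.78), were lower with LNA2 too. Only Pls3 had overlapping LNA1 and LNA2 libraries among these 5, since both groups were higher in replicate 2: 66.0, 34.1 and 34.3 CPM with LNA1 against 34.4, 11.7 and 14.5 CPM with LNA2.

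Among the 8 higher with LNA2, Ak1, adenylate kinase 1, was at 20.7, 25.4 and 19.6 CPM with LNA1, at 44.8, 59.2 and 44.8 CPM with LNA2 and at 19.7 to 23.2 CPM with ctrlA (log2 1.18, SE 0.12, edgeR adjusted p = 7.34e-05). Cdc42bpg, a kinase downstream of Cdc42 (log2 0.71), Spring1, a regulator of SREBP processing (log2 0.59), and Slc6a8, the creatine transporter (log2 0.56), also had LNA1 near ctrlA. Mrps28, a mitochondrial ribosomal protein, Mpp1 and Mllt6 had LNA1 below ctrlA instead. Mrps28 was at 36.5, 16.7 and 13.9 CPM with LNA1, at 55.9, 34.8 and 29.5 CPM with LNA2 and at 70.3, 38.9 and 38.3 CPM with ctrlA. For Mrps28 the fold change against ctrlA_iso was -1.19 with LNA1 and -0.29 with LNA2.

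**Figure D3:**
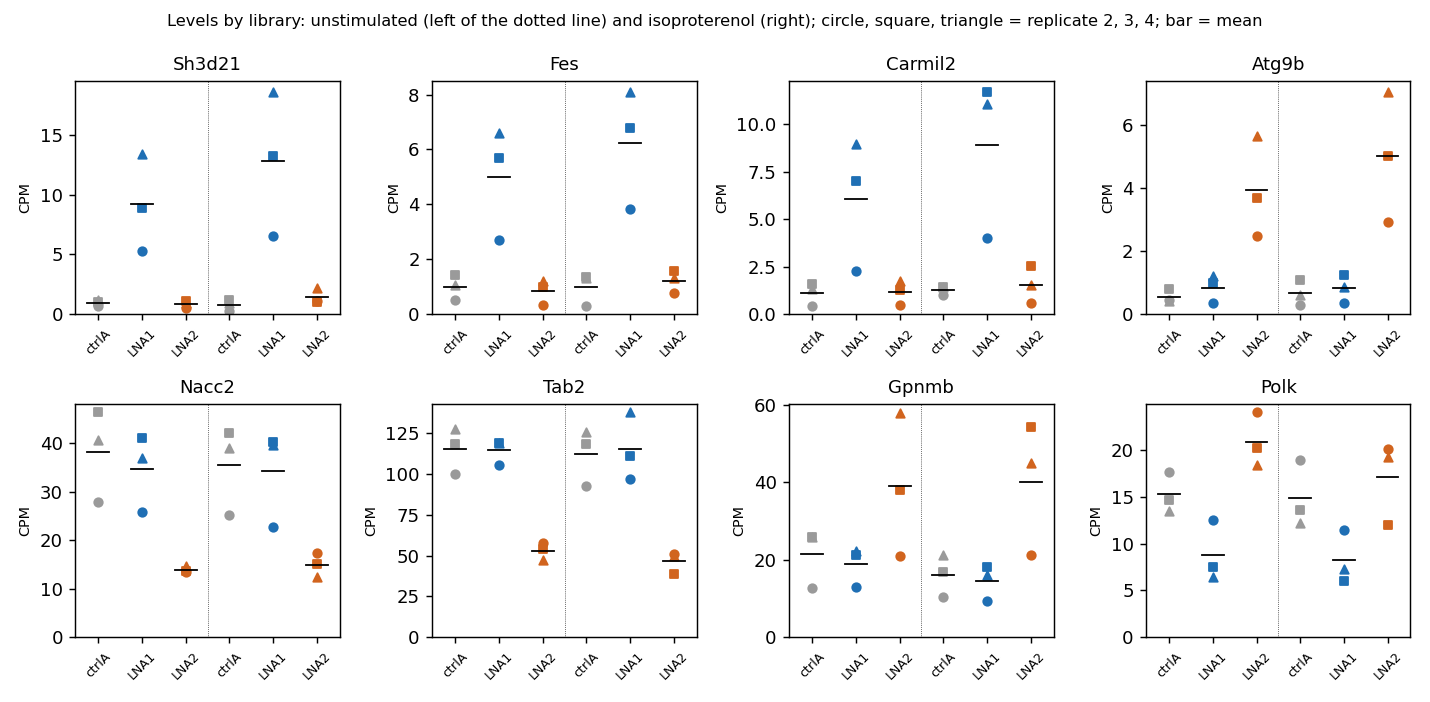
Level in CPM (y axis, starting at 0) of Sh3d21, Fes, Carmil2, Atg9b, Nacc2, Tab2, Gpnmb and Polk in all 18 libraries, unstimulated to the left and stimulated to the right of the dotted line, with circles, squares and triangles for replicates 2, 3 and 4 and a bar at the mean. In both states LNA1 stands apart for Sh3d21, Fes and Carmil2 and LNA2 for Atg9b, Nacc2 and Tab2, while Gpnmb has its highest mean with LNA2 but overlaps ctrlA and Polk has its lowest mean with LNA1.

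The letters that the called genes share with the gapmer sites were counted in the annotated transcripts of 14936 tested genes (GENCODE, GRCm38). Introns were not searched. A run of at least 11 consecutive bases of the LNA2 site was found in 19 genes (0.127%). None of the 217 genes higher with LNA2 and 4 of the 295 lower genes with a transcript (1.36%) were among them. Of the 19 genes, 16 had a level below that of LNA1 (84.2%, against 50.4% of all genes), with a median log2 fold change of -0.29. A run of 11 bases of the LNA1 site was found in 103 genes (0.69%), among them 4 of the genes higher with LNA2 (1.84%) and 1 of those lower (0.339%). Of the 103 genes, 58 were above and 45 below the LNA1 level (43.7% below, against 50.4% of all genes), with a median log2 fold change of 0.03. A run of the reverse complement of ctrlA occurred in 14 genes (0.0937%), of which 2 were lower (0.678% of the lower genes) and none higher with LNA2. Both held a run of 12 bases, which 3 of all genes tested did. The ctrlA gapmer was in none of the 6 libraries.

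The windows of the called genes follow, each of 16 bases, written 5′ to 3′ as in the transcript, with the run shared with the site in capitals. They show how much of a site a called gene holds. Those for LNA2, all in genes lower with LNA2, are compared with the full site.
LNA2 site in Gm15551: caacgccgtgctactt
Utrn: CAACGCCGTGCTccac
Arf3: agctGCCGTGCTACTc
Ccsap: acgCGCCGTGCTACcg
Ttpal: gAACGCCGTGCTgctg
Those for LNA1 are in genes higher with LNA2 except Rps6ka2, which was lower.
LNA1 site in Gm15551: tctaatctcagtcatc
Arid1b: gtagcTCTCAGTCATC
Atg16l2: ccagcTCTCAGTCATC
Fam219a: gccggTCTCAGTCATC
Mllt6: gctagTCTCAGTCATC
Rps6ka2: gCTAATCTCAGTggag

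Utrn, which encodes the dystrophin relative utrophin, held the longest run of these, 12 bases at chr10:12747923-12747938 (minus strand, GRCm38). It was at 117, 208 and 184 CPM with LNA1, at 73.0, 81.6 and 66.0 CPM with LNA2 and at 93.2, 179 and 153 CPM with ctrlA. Every LNA2 library was below every library of the other gapmers, and the LNA2 to LNA1 fold change was -1.16 (log2, SE 0.144, edgeR adjusted p = 0.000265). Arf3, a small GTPase of the Golgi (chr15:98739557-98739572, minus strand), was at 119, 248 and 231 CPM with LNA1 and at 91.1, 147 and 105 CPM with LNA2 (log2 -0.76, SE 0.122). Ttpal (chr2:163615470-163615485, plus strand; log2 -0.54) and Ccsap, a centriole and spindle protein (chr8:123859328-123859343, minus strand; log2 -0.53), had smaller differences. The Ccsap call was lost in 3 and the Ttpal call in 2 of the 6 fits that leave out a library, and the unstimulated log2 fold change of Ccsap was -0.0054. Against ctrlA_iso these 4 genes were at 0.09 to 0.27 with LNA1 and at -0.90 to -0.44 with LNA2 (log2).

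On the LNA1 side, Atg16l2, a paralogue of the autophagy protein Atg16l1 (chr7:101291840-101291855, minus strand), was at 3.64, 4.07 and 3.18 CPM with LNA1 and at 6.74, 8.41 and 6.92 CPM with LNA2, without overlap (log2 1.02, SE 0.193, adjusted p = 0.00568). Arid1b, a subunit of the BAF chromatin remodelling complex (chr17:5127227-5127242, plus strand; log2 0.50), Mllt6 (chr11:97684865-97684880, plus strand; log2 0.61) and Atg16l2 had negative fold changes with LNA1 against ctrlA_iso, of -0.76, -0.40 and -0.38. Fam219a (chr4:41569404-41569419, minus strand; log2 0.69) was at 0.31 against ctrlA_iso with LNA1, and Rps6ka2, a ribosomal S6 kinase (chr17:7189531-7189546, plus strand; log2 -0.66), was at 0.27. The Arid1b, Rps6ka2 and Atg16l2 windows lie in transcripts annotated as a retained intron, a processed transcript and a target of nonsense-mediated decay. On leaving out single libraries the call was lost in 4 of 6 fits for Rps6ka2, in 3 for Arid1b and in 2 for Fam219a. A shared run is a description of letters; whether a gapmer pairs with any of these transcripts was not tested.

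The same comparison was made without isoproterenol. LNA2_ctrl against LNA1_ctrl gave 307 called genes (2.05%), 134 higher with LNA2 (0.896%) and 173 lower (1.16%), 5 without the replicate number in the model and 0 with replicate number 4 left out (1320 at an unadjusted p below 0.05). In both states 193 genes were called, each in the same direction, which is 37.6% of the stimulated and 62.9% of the unstimulated calls, and no gene was called in opposite directions. Of the genes called in stimulated cells, 212 of the 217 higher (97.7%) and 286 of the 296 lower (96.6%) had an unstimulated fold change of the same sign, against 69.0% of all genes. Their median unstimulated log2 fold changes were 0.49 and -0.59. Stimulated and unstimulated comparisons share no libraries, but they share cell line, gapmers and replicate numbers.

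A test of the difference between the states, that is whether isoproterenol changed the LNA2 to LNA1 fold, called no gene in edgeR (0.0%), with 616 genes at an unadjusted p below 0.05. DESeq2 called 4, and edgeR without a filter on low counts called 138, so the absence of calls does not show that the fold was the same in both states. The smallest p belonged to Gm42927, a predicted gene annotated as a processed pseudogene. Whether its reads were split with a related gene was not tested. Gm42927 was at 11.7, 15.5 and 16.7 CPM with LNA1 and 0, 1.73 and 0 CPM with LNA2 under isoproterenol, and 6.61 to 7.33 CPM with ctrlA. Its stimulated log2 fold change was -4.61 and its unstimulated one -0.57, with a difference of -4.03 (edgeR adjusted p = 0.204). The stimulated value ranged from -10.55 to -3.87 on leaving out single libraries. Acta2, smooth muscle actin, came next with a difference of 1.31 and Nr4a1, a nuclear receptor induced at once by cAMP, with -0.86 (edgeR adjusted p = 0.656 for both). Acta2 had log2 fold changes of 0.73 in stimulated and -0.58 in unstimulated cells. Those of Nr4a1 were -0.42 and 0.43, and neither gene was called in unstimulated cells. Nr4a1 was at 19.7, 37.6 and 33.4 CPM with LNA1 and at 17.3, 25.9 and 23.4 CPM with LNA2 under isoproterenol, with overlapping groups and a log2 fold change of -0.42.

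**Figure D4:**
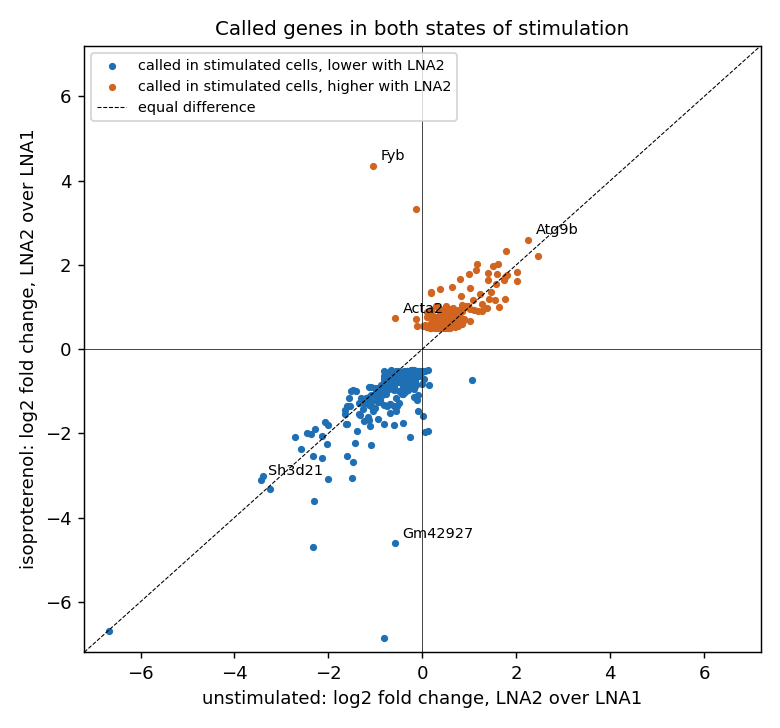
Log2 fold change of LNA2 over LNA1 in unstimulated cells (x axis) and in stimulated cells (y axis) for the 513 genes called in stimulated cells, orange for higher and blue for lower with LNA2, with a dashed line where both are equal. Most genes lie in the quadrants where the states have the same sign, and Fyb, Acta2 and Gm42927 lie away from the line.

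The programmes of the brown adipocyte itself were examined by gene list. All list calls below rest on the pairing: without the replicate number in the model no gene of any list was called (832 of all genes had an unadjusted p below 0.05), and with glmTreat, a test against a log2 fold change of 0.5, Atg9b and Gpnmb alone were. Of 19 tested thermogenic effectors and regulators 1 was higher and 2 were lower with LNA2 (15.8% called, against 3.43% of all genes), with a list median of -0.05 on the log2 scale. Ucp1 was at 10.5 to 13.6 CPM with LNA1 and at 9.38 to 12.6 CPM with LNA2 (log2 -0.13, SE 0.186, adjusted p = 0.723). Esrra, the orphan receptor that drives mitochondrial genes, was higher (log2 0.55, SE 0.113, edgeR adjusted p = 0.00939). Ebf2, a transcription factor of brown fat identity, was lower (log2 -0.53, edgeR adjusted p = 0.0292). Against ctrlA_iso Esrra was at -0.51 with LNA1 and 0.04 with LNA2, and Ebf2 at -0.03 and -0.55 (log2). Cpt1b, which admits fatty acids to mitochondria, was at 24.9, 42.3 and 44.97 CPM with LNA1 and at 16.1, 33.7 and 29.7 CPM with LNA2 (log2 -0.51). Cpt1b shares exons on the same strand with Gm44502. The calls of Esrra, Cpt1b and Ebf2 were each lost on leaving out LNA1_iso replicate 4, and each also on leaving out other single libraries.

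In beta-adrenergic and cAMP signalling 17 of 37 genes had an unadjusted p below 0.05 in edgeR, against 23.9% of all genes. Of the 37 genes, 1 was called (2.7%, against 3.43% of all genes). This was Prkacb, the beta catalytic subunit of protein kinase A, at 68.1, 82.1 and 86.6 CPM with LNA1, at 48.9, 44.8 and 48.3 CPM with LNA2 and at 58.8 to 87.8 CPM with ctrlA. LNA2 was below every library of the other gapmers, LNA1 and ctrlA overlapped, the log2 fold change of LNA2 over LNA1 was -0.73 (SE 0.116, edgeR adjusted p = 0.00184), and the call held on leaving out each library in turn. Of 18 adipogenic transcription factors, Stat5b alone was called (5.56% of the list, log2 -0.71, SE 0.12, edgeR adjusted p = 0.00264), and it too kept its call in each of those fits. With all libraries of replicate number 4 left out, neither Prkacb nor Stat5b was called. No gene was called among 27 of fatty acid oxidation, 35 nuclear genes of the respiratory chain, 30 of glucose uptake, glycolysis and glycogen, 29 of cholesterol synthesis and handling, 18 of the circadian clock and 22 of RNase H, paraspeckles and gapmer handling, with list medians of -0.06 to 0.03. In each of these lists edgeR gave an unadjusted p below 0.05 for 4 to 10 genes, and DESeq2 called none. The 13 genes of the mitochondrial genome had a median of -0.25, none called and 2 at an unadjusted p below 0.05, and their summed level was 33200 to 102000 CPM with LNA1 and 23800 to 72700 CPM with LNA2. That level moved with the replicate number, highest in replicate 2. Without LNA2_iso replicate 4, 5 of the 13 were called.

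For lipid storage, 2 of 30 genes of lipid synthesis and uptake were higher with LNA2 (6.67%, against 1.45% of all genes) and none lower, with a median of 0.14. Fasn, fatty acid synthase, was at 192, 782 and 628 CPM with LNA1 and at 279, 1240 and 774 CPM with LNA2 (log2 0.51, SE 0.114, adjusted p = 0.0134), higher in each pair although the groups overlapped. Thrsp, an inducible regulator of lipogenesis, was at 37.7, 30.3 and 20.4 CPM with LNA1 and at 53.2, 49.3 and 27.4 CPM with LNA2 (log2 0.55, SE 0.0831, edgeR adjusted p = 0.00122). Against ctrlA_iso Thrsp was at -0.56 with LNA1 and -0.01 with LNA2, and Fasn at -0.14 and 0.37 (log2). Without LNA2_iso replicate 3 neither was called, and without LNA2_iso replicate 2 the list had 4 calls. None of 19 genes of lipid droplets and lipolysis was called, with 8 at an unadjusted p below 0.05 and up to 2 calls on leaving out single libraries. Plin1, Plin2 and Plin3, which coat lipid droplets, had log2 fold changes of 0.24, 0.40 and 0.31 with adjusted p of 0.0308, 0.0396 and 0.0139, below the fold limit.

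Adipokines and other secreted factors had 4 of 21 genes higher with LNA2 and none lower, against 1.45% higher over all genes. Gdf15, a stress-induced cytokine, was at 48.4, 57.7 and 60.0 CPM with LNA1, at 69.9, 114 and 103 CPM with LNA2 and at 59.2 to 89.5 CPM with ctrlA (log2 0.78, SE 0.113, adjusted p = 0.000893). Retn, resistin (log2 0.65), Cfd, the complement factor adipsin (log2 0.64), and Angptl2, an angiopoietin-like protein (log2 0.66), were the others. Gdf15 and Angptl2 did not overlap between the gapmers. Retn and Cfd did, because both groups were high in replicate 2: Retn was at 112, 34.5 and 34.3 CPM with LNA1 and at 139, 68.3 and 55.3 CPM with LNA2. The list count was 2 to 5 on leaving out single libraries, with 2 without LNA1_iso replicate 3.

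Of 30 tested genes of the p53 response and DNA damage, 4 were higher with LNA2 (13.3%, against 1.45% of all genes), none was lower, and the list median was 0.25. All 4 calls were lost without the replicate number in the model and with glmTreat. These were Polk, a translesion DNA polymerase, Eda2r, a receptor of the TNF family, Zmat3, an RNA-binding p53 target, and Phlda3, an inhibitor of Akt. Zmat3 was at 15.7, 29.1 and 26.9 CPM with LNA1, at 27.2, 49.0 and 51.6 CPM with LNA2 and at 16.5 to 35.5 CPM with ctrlA (log2 0.83, SE 0.106, edgeR adjusted p = 0.000311). Each pair moved up, while the groups overlapped through replicate 2. Polk was at 11.4, 6.04 and 7.31 CPM with LNA1, at 20.1, 12.03 and 19.3 CPM with LNA2 and at 12.2 to 18.9 CPM with ctrlA (log2 1.08, SE 0.167, adjusted p = 0.00146). Here LNA1 was below both other groups and the fold change against ctrlA_iso was -0.88 with LNA1 and 0.20 with LNA2.

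In unstimulated cells 10 of the 30 p53 genes were called higher with LNA2, against 0.896% of all genes, and none lower. Those 10 were Mdm2, the ubiquitin ligase of p53 (log2 0.65), Ccng1 (log2 0.61), Plk2, Plk3, Aen, Psrc1 and the 4 above. With replicate number 4 left out no gene of any list was called in unstimulated cells, and without the replicate number in the model 2 of all genes were called higher. In stimulated cells Mdm2 was at 0.46 (adjusted p = 0.00426) and Cdkn1a, the cell cycle inhibitor p21, at 0.26 (adjusted p = 0.0207), both below the fold limit. The stimulated count of 4 was 3 to 8 on leaving out single libraries: 3 without LNA1_iso replicate 4 and 8 without LNA2_iso replicate 4. The cell cycle list, by comparison, had 1 of 40 genes called (2.5%, against 3.43% of all genes), Ccnd1, cyclin D1 (log2 0.71, adjusted p = 0.0346), which lost its call in 4 of the 6 fits.

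Of 24 genes of oxidative stress and the metallothioneins 3 were higher and 1 lower (16.7% called, against 3.43% of all genes). Hmox1, haem oxygenase 1, was at 130, 102 and 146 CPM with LNA1 and at 162, 176 and 229 CPM with LNA2, without overlap (log2 0.60, SE 0.104, adjusted p = 0.00334). Nqo1, a quinone reductase (log2 0.71), and Gsta4, a glutathione transferase (log2 1.31), were higher, and Mt2, metallothionein 2, was lower (log2 -0.52). Against ctrlA_iso Mt2 was at 0.52 with LNA1 and -0.0002 with LNA2 (log2). The 4 calls of this list came to 2 without LNA1_iso replicate 3, LNA1_iso replicate 4 or LNA2_iso replicate 4. In autophagy and lysosome genes 3 of 38 were higher (7.89%, against 1.45% of all genes) and none lower: Atg9b and Gpnmb, given above, and Sqstm1, the cargo receptor p62, at 274, 413 and 420 CPM with LNA1 and 376, 639 and 573 CPM with LNA2 (log2 0.52, SE 0.0755, adjusted p = 0.0009). Hmox1 and Sqstm1 were close to ctrlA_iso with LNA1 (log2 -0.22 and -0.04) and above it with LNA2 (0.38 and 0.47). Genes of ER stress and the integrated stress response gave 0 calls of 32, with 12 at an unadjusted p below 0.05, a median of 0.0 and up to 3 calls on leaving out single libraries.

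Inflammatory genes moved in both directions. Of 17 acute-phase and complement genes 3 were lower with LNA2 (17.6%, against 1.98% of all genes). Saa3, an acute-phase apolipoprotein, was at 8.43, 4.29 and 4.93 CPM with LNA1, at 4.37, 1.49 and 1.84 CPM with LNA2 and at 3.65, 1.09 and 1.02 CPM with ctrlA (log2 -1.29, SE 0.247, adjusted p = 0.00576). Serpina3n, a protease inhibitor, was lower too (log2 -0.54). Saa3 and Serpina3n were higher in replicate 2 of each gapmer, and with the 6 libraries of that number left out no gene of the list was called. In NF-kB signalling, cytokines and chemokines 2 of 26 were called (7.69%, against 3.43% of all genes): 1 was higher, Ccl2, a monocyte chemokine (log2 0.91, adjusted p = 0.0439), and 1 lower, Vcam1, an adhesion molecule (log2 -0.56, adjusted p = 0.00577). Without LNA1_iso replicate 4, as without LNA2_iso replicate 3, both calls were lost.

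Of 32 interferon response genes and RNA sensors, which can answer foreign nucleic acid, Ifi27l2a alone was called (3.12%, against 3.43% of all genes). It was at 15.7, 6.40 and 6.04 CPM with LNA1, at 23.8, 16.1 and 10.9 CPM with LNA2 and at 6.69, 2.19 and 2.76 CPM with ctrlA (log2 0.93, SE 0.207, adjusted p = 0.0145). Its fold change against ctrlA_iso was 1.28 with LNA1 and 2.21 with LNA2, and its call was lost without LNA1_iso replicate 3, LNA2_iso replicate 3 or LNA1_iso replicate 4. In MHC class I presentation Calr3, a calreticulin family chaperone, was the 1 gene called of 22 (4.55%), at 12.2 to 13.4 CPM with LNA1, 19.1 to 26.2 CPM with LNA2 and 5.21 to 9.04 CPM with ctrlA (log2 0.81, adjusted p = 0.00755, or 0.0504 without LNA1_iso replicate 4).

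In the extracellular matrix list 2 of 42 genes were lower with LNA2 (4.76%, against 1.98% of all genes) and none higher. Col3a1, a fibrillar collagen, was at 161, 286 and 262 CPM with LNA1 and at 130, 190 and 150 CPM with LNA2 (log2 -0.57, SE 0.0872, adjusted p = 0.00136). Lox, lysyl oxidase, which cross-links collagen, was at 116, 153 and 164 CPM with LNA1 and at 99.5, 86.0 and 89.5 CPM with LNA2 (log2 -0.65, SE 0.149, adjusted p = 0.0161). LNA1 and LNA2 did not overlap for Lox and did for Col3a1. Of 34 genes of TGF-beta, activin and BMP signalling 1 was called (2.94%, against 3.43% of all genes): Fst, the activin antagonist follistatin, was lower (log2 -0.86, adjusted p = 0.00755). Without LNA1_iso replicate 4 neither Lox, Col3a1 nor Fst was called, and without LNA2_iso replicate 2 both lists had 4 calls.

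Among 31 genes of insulin and growth factor signalling 3 were lower and 1 was higher (12.9% called, against 3.43% of all genes). Igf1r, the IGF1 receptor, was at 22.5, 56.5 and 71.0 CPM with LNA1, at 15.2, 39.2 and 40.4 CPM with LNA2 and at 13.7 to 44.8 CPM with ctrlA (log2 -0.65, SE 0.111, adjusted p = 0.00317). Trib2, a pseudokinase (log2 -0.79), and Fgfr2, an FGF receptor (log2 -0.54), were lower and Pdgfrb, a PDGF receptor, was higher (log2 0.62). Igf1r and Trib2 kept their calls on leaving out each single library, and Fgfr2 lost its call in 5 of the 6 fits. Igf1r, Trib2, Fgfr2 and Pdgfrb all lost their calls with the libraries of replicate number 4 left out. All but Igf1r also lost theirs with replicate number 3 left out. Fgfr2 shares exon sequence on the same strand with Ctbp2.

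Camk2d, the kinase gene that contains the Gm15551 locus, was at 102, 100 and 112 CPM with LNA1, at 86.8, 90.2 and 87.5 CPM with LNA2 and at 90.5, 106 and 96.6 CPM with ctrlA. LNA2 was below LNA1 in each library, by -0.25 on the log2 scale (SE 0.0708, edgeR adjusted p = 0.0449), which is below the fold limit. Camk2g, the other CaMKII gene tested, was at 0.31 (adjusted p = 0.0468).

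Markers of other cell types were looked at in the same comparison, in which 1.45% of all genes were higher with LNA2; the lists are too short for a share to be read against that. Of 4 tested macrophage and leukocyte markers Csf1r, the CSF1 receptor, was higher with LNA2, at 0.444, 0.218 and 0.159 CPM with LNA1 and 1.14, 1.26 and 1.77 CPM with LNA2 (log2 2.34, adjusted p = 0.0292). The summed level of the 4 was 23.4 to 33.9 CPM with LNA1 and 31.7 to 49.3 CPM with LNA2, with Cd68, a lysosomal protein, at 18.9 to 29.6 and 24.8 to 42.4 CPM, while Cd3e was at 0. The Csf1r call was lost in 3 of the 6 fits that leave out a library. Of 7 tested endothelial and mural markers Acta2 was higher, at 12.6, 8.51 and 3.10 CPM with LNA1 and 21.4, 14.5 and 4.92 CPM with LNA2 (log2 0.73, adjusted p = 0.0271), with a summed level of 34.1 to 45.1 and 36.0 to 61.8 CPM. Acta2 lost its call on leaving out any of 5 of the 6 libraries. In unstimulated cells its log2 fold change was -0.58 (edgeR adjusted p = 0.0954). No preadipocyte or skeletal muscle marker was called (11 and 3 tested), and their summed levels overlapped, at 133 to 284 and 131 to 252 CPM and at 5.15 to 5.96 and 4.69 to 6.52 CPM. The part of these markers in the other differences was not tested.

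**Figure D5:**
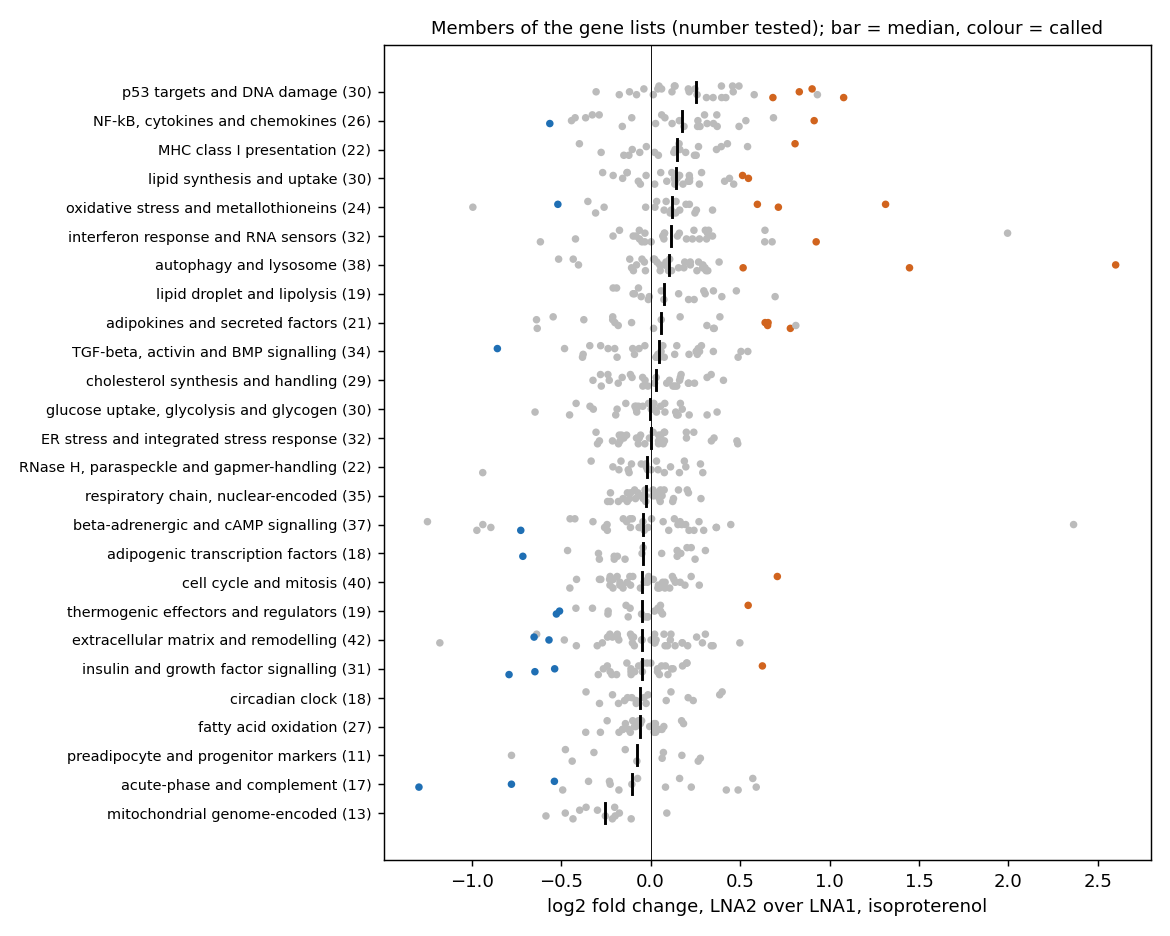
Log2 fold change of LNA2 over LNA1 in stimulated cells (x axis) for each tested member of the lists with at least 10 tested genes, with called genes in orange (higher) or blue (lower), the others in grey and a black bar at the list median. The medians run from -0.25 for the mitochondrial genome to 0.25 for the p53 list, and no list has more than 4 genes called.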

How the data were processed

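PolyA RNA of 18 samples was sequenced as paired ends. The submitters' processing notes name bcl2fastq, cutadapt, Salmon, DESeq2 and the build GRCm38, and versions are not given in the sources used here. The authors deposited a gene table of estimated counts, all of them whole numbers. Whether counting used strand is not given. Columns were matched to samples by gapmer, stimulation and replicate number. Gene models came from GENCODE M21 (GRCm38), which holds 99.53% of the gene identifiers.

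Genes were filtered with filterByExpr (count of 10, total of 15), scaled by TMM and fitted in edgeR 4.0.16 (R 4.3.3) by quasi-likelihood over all 18 libraries, so that the groups share 1 estimate of the spread, with the 6 groups and the replicate number as terms and 10 residual degrees of freedom. P-values were adjusted by Benjamini-Hochberg over 14949 genes. The replicate number was kept in the model because the comparison was defined as paired; the study's methods do not state such a term. As a check, deviations from the group means in LNA1_iso and LNA2_iso libraries of the same number correlated at r = 0.692, 0.505 and 0.39 across genes, and those of different numbers at -0.522 to 0.209. Deviations within a group cancel out, so negative values between different numbers are partly built in. LNA2_iso replicate 3 with LNA1_iso replicate 4 gave 0.209, against 0.39 for the replicate 4 pair. The check therefore sets replicates 3 and 4 apart less clearly than replicate 2. The labels do not say what a number marks. No 2 libraries of a group held the same values.

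Members and gene lists (30 lists) were chosen with earlier results of these data known. Named genes were the 14 with the largest change in each direction that were called, moved one way in all pairs, did not overlap, had a mean of at least 1 CPM and had no clone or predicted name, the called list members, Nacc2, Sh3d21, Camk2d and the 3 genes with the smallest p for the difference between states. Genes with runs of gapmer bases follow from the search, and 16 genes with a mean of at least 10 CPM were added after their values were seen. Some genes that these rules chose are not reported here.

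In data simulated for the stimulated comparison on 14949 genes, 76% of genes changed by 1 and 86% of those changed by 2 on the log2 scale were recovered, with 4 false calls. Without the replicate term 32% and 68% were recovered, with 0 false calls. The counts were drawn from the fit with that term, so the simulation cannot show whether the term is right. Counting error only is covered by the 3-count limit. The alternatives were no low-count filter, no replicate term, RLE scaling, DESeq2 1.42.0, totals without rRNA and mitochondrial genes, the 6 libraries alone, glmTreat, and leaving out each library or replicate number.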

Additional observations from a re-analysis of the deposited data

How the results depend on the processing

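The pairing decides how many genes were called. Without the replicate block edgeR called 28 genes in stimulated and 5 in unstimulated cells, against 513 and 307 with it, and 12 of the 90 named calls were kept. In stimulated cells the 6 libraries alone gave 337 calls, of which 323 were among the 513, and glmTreat, which tests against a log2 fold change of 0.5, gave 36. Leaving out single libraries gave 224 to 835 calls, with 301 without LNA1_iso replicate 3, 309 without LNA2_iso replicate 3, 224 without LNA1_iso replicate 4 and 835 without LNA2_iso replicate 4. Leaving out all libraries of replicate number 2, 3 or 4 gave 284, 185 and 141. RLE scaling (514), DESeq2 (481), no filter on low counts (768) and totals without rRNA and mitochondrial genes (526) stayed within 1.5 times the count. In unstimulated cells no filter gave 530 calls, single libraries left out gave 90 to 318 (204 without LNA1_ctrl replicate 2, 169 without LNA1_ctrl replicate 3, 136 without LNA1_ctrl replicate 4, 90 without LNA2_ctrl replicate 4), and leaving out replicate number 2, 3 or 4 gave 146, 175 and 0, the last with 1320 genes at an unadjusted p below 0.05. The difference between states gave 138 calls without the filter, 4 in DESeq2, 0 to 2 with single libraries left out and 2 without replicate number 3, against 0. The cause of these moves was not tested.

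The Gm15551 log2 difference was -0.03 to 1.83 with single libraries left out, and its sign turned without LNA1_iso replicate 2. None of the 90 named calls changed direction under an alternative that tested it. RLE scaling lost Arid1b, and totals without rRNA and mitochondrial genes lost Cpt1b. No filter lost Gsta4 and Ccsap. DESeq2 lost Fyb and Arid1b of the 80 genes for which it gave an adjusted p, and left 10 without one. Of the 90, single libraries left out lost 9 to 32, glmTreat 69, and leaving out replicate number 2, 3 or 4 lost 29, 45 and 52. The 6 libraries alone lost 12 of 89, with Hsf5 not tested there. Fyb, Syngr3, Cplane2, Gsta4, Nek10, Fgfr2 and Acta2 each lost theirs in 5 of the 6 fits. Sh3d21, Fes, Carmil2, Fam83e, Atg9b, Orai2, Cryab, Gpnmb, Nacc2, Chd2, Tab2, Ak1, Utrn, Prkacb, Zmat3 and Polk kept theirs in all 6. Of these 16, only Sh3d21, Fam83e, Orai2, Cryab, Tab2 and Ak1 were called without the replicate block, and Nacc2, Prkacb and Polk were not called with replicate number 4 left out. Depth limits what can be said of genes near the level of 3 counts, Gm15551 among them.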
